A study of Arabidopsis thaliana with 60 samples.

Results

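Trimethylation of histone H3 at lysine 4 was compared between 2 wild-type accessions of Arabidopsis thaliana, Col-0 and Ler, in whole seedlings 8 days old. The comparison used 4 of the 60 libraries of the series, each represented by its own single-end peak list: 2 from Col-0 (libraries 1 and 2) and 2 from Ler (libraries 1 and 3, by the number in the list name). Neither accession carried a mutation or transgene made for the study, and Ler, as background, carries the erecta mutation that gave the accession its name. The antibody field of the labels names histone H4 for these samples and the titles give only K4, so the mark is called K4 below. The second Ler library has the number 3 in its list and 2 in its label, so it was placed by genotype alone. Nothing in the labels states that libraries of 1 accession came from separate sowings, so spread between libraries may be technical.

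K4 trimethylation marks the first nucleosomes of transcribed genes and is written by trithorax-group methyltransferases of the ATX and SDG families. H3K27me3 is laid down by POLYCOMB REPRESSIVE COMPLEX 2 over silent developmental and stress genes, and both marks can be found on the same gene in a tissue made of many cell types. Col-0 is the accession of the TAIR10 reference genome. Ler differs from it by sequence variants, by gained and lost gene copies, most often among disease resistance and receptor genes, and by rearrangements. Reads from Ler sequence that the reference lacks, or that has diverged too far from it, have no place to align, so a K4 peak that is absent and a sequence that is absent cannot be told apart from a peak list alone.

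8 further K4 libraries of the series were set beside these results. The ref6-3 libraries (1 and 2) come from a mutant of the H3K27me3 demethylase REF6 in Col-0. The ult1-2, ult1-3 and 35S::ULT1 libraries (1 and 3 of each, by list name) are placed in the Ler background by the series' design text. They either lack ULTRAPETALA1 function or overexpress the gene from the 35S promoter. Each therefore carries its own lesion or transgene besides the accession. The second ult1-2 K4 library, like that of Ler, has the number 3 in its list and 2 in its label. It too was placed by genotype alone. H3K27me3 lists of the same genotypes were used for the second mark.

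The 4 K4 lists held 15785 to 16381 peaks, with 16.5 M and 19.6 M reads in peaks in Col-0 and 18.2 M and 18.9 M in Ler (M, 1e+06). A protein-coding gene counted as K4-marked once the summed length under peaks reached 500 bp or 50% of the gene span, whichever was less. By this rule 17187 and 17405 genes were marked in Col-0, 16827 in Ler library 1 and 17373 in Ler library 3. All 13 LHCB and RBCS genes, which encode light-harvesting and Rubisco proteins, were marked in all 4 libraries, while 10 of 11 seed storage genes were H3K27me3-marked in all 4 lists of that mark and 1 of 11 was K4-marked. Ler library 1 stood apart. Its peak bases overlapped those of Col-0 with Jaccard indices (shared over joined bases) of 0.788 and 0.778, against 0.853 and 0.849 for Ler library 3, 0.845 between the Ler libraries and 0.909 between the Col-0 libraries. The Ler libraries themselves differed at 214 genes marked only in library 1 and 760 marked only in library 3. That is close in size to the 438 and 624 genes that parted Col-0 library 1 from Ler library 3. A difference between the accessions was therefore counted only where both libraries of each agreed.

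Most genes had the same K4 state in both accessions. Of 27444 protein-coding genes, 16194 (59.0%) were marked in all 4 libraries and 9257 in none. A set of 362 genes, 1.32% of those tested, was marked in both Col-0 libraries and neither Ler library (Col-0-only genes). In the other direction, 235 genes, 0.856%, were marked in both Ler libraries and neither Col-0 library (Ler-only genes). With Ler library 1 left out the counts were 394 and 450, and with Ler library 3 left out they were 790 and 396. Leaving out a library makes the rule less strict, so the counts can only increase. Without Col-0 library 1 they were 559 and 321, and without Col-0 library 2 they were 403 and 333.

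Covered length per gene was also tested with limma across all 12 K4 lists, for the 18641 genes with at least 200 bp covered in at least 2 lists. At an adjusted p (Benjamini-Hochberg) under 0.05, 168 genes (0.901%) had longer K4 cover in Col-0 and 93 genes (0.499%) had longer cover in Ler, 1.4% of the genes tested in all, and 1372 genes had an unadjusted p under 0.05. Of these calls, 123 were Col-0-only genes and 54 were Ler-only genes. A further 42 and 37 were marked in all 4 libraries and differed in the breadth of the domain. The count of calls rested on single libraries: without Col-0 library 2 it was 58 higher in Col-0 and 43 higher in Ler, without Ler library 1 it was 86 and 48, and without Col-0 library 1 it was 112 and 46. Of 44 named genes that the fit called, 25 were called in each of the 4 fits that left out 1 library. Adjusted p-values are printed below for those 25, and other called genes are given with the range over those fits or by their values alone.

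Both groups of genes had fewer K4 reads per kb than genes marked throughout. The groups were chosen by cover in these same lists, so this describes them and is no separate result. The median K4 level was 13.2 reads per kb of gene, scaled to 1 M reads in peaks, for Col-0-only genes in Col-0. It was 12.8 for Ler-only genes in Ler, against 20.9 in Col-0 and 21.8 in Ler for genes marked in all 4 libraries. The median covered length was 788 bp and 708 bp, against 1000 bp in each accession. The median covered share of the span was not lower: 45.9% and 44.5%, against 43.5% in Col-0 and 43.9% in Ler. In 235 of the 362 Col-0-only genes no base was under a K4 peak in either Ler library, and 136 of the 235 Ler-only genes had none in either Col-0 library. Genes with a symbol of their own made up 26.5% of Col-0-only and 36.6% of Ler-only genes, against 37.8% of all protein-coding genes and 44.5% of genes marked in all 4 libraries.

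The strongest Col-0-only differences among all genes were at loci with no symbol. AT3G44430 was covered over 100% of its span in both Col-0 libraries and 0% in both Ler libraries, under a peak at chr3:16068201-16070600 (TAIR10). Its covered length was 1494 bp greater in Col-0 (SE 118.6 bp, limma adjusted p = 3.85e-05). It had 100% cover in both ref6-3 libraries and 0% in all 6 libraries of the Ler background. AT4G16880 had the same 100% and 0%, a difference of 1331 bp (SE 125.1 bp, adjusted p = 0.000147), and its peak at chr4:9494401-9497400 also covers part of RPP4. AT2G04380 differed by 1126 bp (SE 115.4 bp, adjusted p = 0.000285), yet its cover was 68.1% and 85.9% in the ult1-2 libraries. Its state was thus not shared by all libraries of the Ler background.

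NLR proteins are intracellular receptors that detect pathogen effectors. Of 25 NLR genes found by symbol, 3 were Col-0-only (12%, against 1.32% of all genes) and 0 Ler-only, and 20 were marked in all 4 libraries. Limma called 4 of 23 tested, all 4 with more cover in Col-0, against 0.901% of all genes tested. The list is short and was not tested as a list. It leaves out NLR genes that the symbol match missed, and not all of these had more cover in Col-0. TTR1 (AT5G45050), an NLR gene outside the 25 that the main fit also called, had more cover in Ler. Its difference, Col-0 minus Ler, was -800 to -600 bp over the fits that left out 1 library. CSA1 (AT5G17880) and DAR4 (AT5G17890), also known as CHS3, are neighbours that encode a receptor pair, DAR4 standing outside the 25 matched by symbol. CSA1 was covered over 1317 bp in Col-0 library 1 and 1317 bp in library 2, and over 0 bp in both Ler libraries, with a peak at chr5:5912001-5913400. This differed beyond the spread of the 12 lists (SE 124.1 bp, limma adjusted p = 0.000147). DAR4 was covered over 1139 bp in each Col-0 library and 0 bp in each Ler library (SE 133.8 bp, adjusted p = 0.000806). Both genes had cover in both ref6-3 libraries and 0 bp in the 6 other libraries of the Ler background, and neither had any H3K27me3 cover in Col-0 or Ler. With AT5G17900 they formed a run of 3 adjacent Col-0-only genes.

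TAO1 (AT5G44510), which contributes to the response to AvrB, had 800 bp in both Col-0 libraries and 0 bp in both Ler libraries. Its adjusted p of 0.0206 was 0.082 to 0.194 when 1 of the 4 libraries was left out. RPP5 (AT4G16950), of the cluster that also holds RPP4 and SNC1, had 2800 and 2555 bp in Col-0 and 1000 and 1200 bp in Ler. Its difference of 1578 bp (SE 214.7 bp) had an adjusted p of 0.00448, with 0.021 to 0.0531 over the fits that left out a library. It was past the threshold without Col-0 library 2 or Ler library 3 and just short of it without Col-0 library 1 (0.0531) or Ler library 1 (0.053). SNC1 had 2600 and 2572 bp in Col-0 and 1000 and 1572 bp in Ler, with an adjusted p of 0.0585 in limma. Copies of such clusters are alike, and the placing of reads with several matches is not stated, so the share of each copy is uncertain.

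Receptor-like kinases and receptor-like proteins, which sense ligands at the cell surface, gave 10 Col-0-only genes of 206 (4.85%, against 1.32% of all genes), with 112 marked in all 4 libraries. The 2 Ler-only genes (0.971%) were near the 0.856% of all genes. In limma, 5 of 146 tested were higher in Col-0 and 3 higher in Ler, against 0.901% and 0.499% of all genes tested. RLP47 (AT4G13810) was covered over 1397 and 1197 bp in Col-0 and 0 bp in both Ler libraries (SE 147.7 bp, limma adjusted p = 0.000677). The gene had 0% cover in 5 of the 6 other libraries of the Ler background and 13.1% in 35S::ULT1 library 3. SNC4 (AT1G66980), an atypical receptor-like kinase whose gain-of-function allele activates defence, had 1000 and 1200 bp in Col-0 and 0 bp in Ler (SE 135.6 bp, adjusted p = 0.00116). EFR, the receptor of bacterial elongation factor Tu, had 1400 and 1600 bp in Col-0 and 0 and 200 bp in Ler. Its adjusted p was 0.215, and in 35S::ULT1 library 1 peaks covered 54.6% of the gene. The adjacent lectin receptor kinase genes, LecRK-I.3, LecRK-I.4 and LecRK-I.5 (AT3G45410, AT3G45420 and AT3G45430), formed another Col-0-only run. LecRK-I.3 had 1000 bp in both Col-0 libraries and 0 bp in both Ler libraries (SE 138.0 bp, adjusted p = 0.00259), whereas LecRK-I.4 had 640 bp in Col-0 and still 400 bp in Ler. In the other direction, the 2 Ler-only genes were CRK5 (AT4G23130), with 800 bp in both Ler libraries, and WAKL4 (AT1G16150), with 1000 and 600 bp, both at 0 bp in Col-0.

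Among genes with a symbol, several developmental and nutrient genes were K4-marked in Col-0 alone while H3K27me3 covered them fully in both accessions. The 20 symbol-bearing genes with the greatest difference in each direction, a choice made after the values were seen, are shown in the plot of K4 cover by library. WOX2 (AT5G59340), a homeobox gene of early embryo patterning, had K4 over 70.1% and 81.7% of its span in Col-0 and 0% in both Ler libraries. The difference was 1300 bp (SE 126.9 bp, limma adjusted p = 0.000206), while H3K27me3 covered 100% of the gene in both Col-0 and both Ler libraries. MYB49 (AT5G54230), a MYB transcription factor gene, had 62.5% and 83.4% in Col-0 and 0% in Ler (1400 bp, SE 131.8 bp, adjusted p = 0.000147). PHT1;1 (AT5G43350), a root phosphate transporter gene, had 50.2% and 41.8% in Col-0 and 0% in Ler (1100 bp, SE 129.0 bp, adjusted p = 0.000806). It lies in a cluster of near-identical copies, so its share of reads is uncertain. These 3 genes had K4 cover in both ref6-3 libraries and 0% in the 6 libraries of the Ler background, and all 3 had 100% H3K27me3 cover in each Col-0 and Ler library. SEP4, a MADS-box gene of floral organ identity, showed the same arrangement with 37.2% and 29.6% K4 cover in Col-0 and 0% in Ler.

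**Figure D1:**
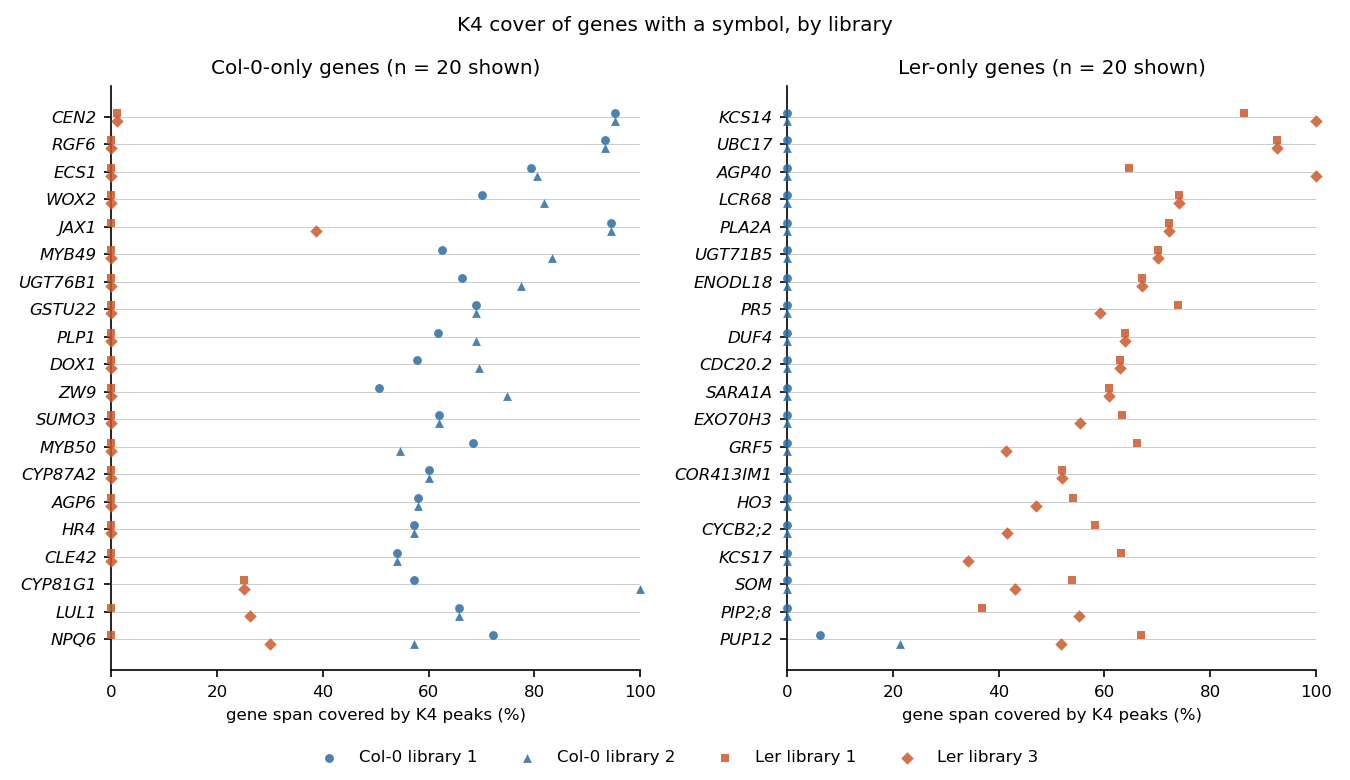
Percent of the gene span under K4 peaks (x axis) for the 20 Col-0-only and 20 Ler-only genes with a symbol and the greatest mean difference, 1 point per library (circles and triangles Col-0, squares and diamonds Ler). In the left panel the genes sit at 0% or 1.01% in both Ler libraries except CYP81G1 (25.2% in both) and JAX1, LUL1 and NPQ6 (26.3% to 38.6% in library 3 alone), and in the right panel PUP12 alone has more than a trace of cover in Col-0 (6.22% and 21.4%).

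Not every gene of that plot held its state in the other libraries. CEN2, which encodes a centrin, was covered over 95.2% of its span in both Col-0 libraries and 1.01% in both Ler libraries, yet 3 of the 6 other libraries of the Ler background were marked, all with the number 3. RGF6, a root growth peptide gene, had 93.4% in both Col-0 libraries, 0% in both Ler libraries and 0% in ref6-3 library 1. UGT76B1, whose enzyme glucosylates defence signals, had 66.4% and 77.4% in Col-0 and 0% in both Ler libraries, and was marked in 4 of the 6 other libraries of the Ler background. These genes were separated cleanly in the 4 wild-type libraries, and their adjusted p-values in limma, which shares its spread with the 8 others, were 0.534, 0.557 and 0.298.

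Ler-only genes included enzymes, a cell cycle regulator and membrane transporters. PLA2A (AT2G26560), a patatin-type lipid hydrolase induced in defence, had 0 bp in both Col-0 libraries and 1600 bp in both Ler libraries, under a peak at chr2:11294201-11295800. This was the lowest p of the Ler-only genes named here (SE 97.1 bp, limma adjusted p = 9.31e-06). The gene was at 0% in both ref6-3 libraries and at 72.2% to 100% in the 6 libraries of the Ler background, and H3K27me3 covered 81.2% to 95.5% of it in the 4 wild-type libraries. UGT71B5 (AT4G15280), a UDP-glycosyltransferase gene, had 0 bp in Col-0 and 1200 bp in both Ler libraries (SE 92.3 bp, adjusted p = 3.26e-05). UBC17 (AT4G36410), a ubiquitin-conjugating enzyme gene, had 0 bp in Col-0 and 988 bp in both Ler libraries (SE 109.3 bp, adjusted p = 0.000528). Both were marked in all 6 other libraries of the Ler background and in neither ref6-3 library.

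CDC20.2 (AT4G33260), an activator of the anaphase-promoting complex, had 0 bp in Col-0 and 1600 bp in both Ler libraries (SE 195.7 bp, limma adjusted p = 0.00177). It was at 0% in the ult1-2 and ult1-3 libraries and covered in both 35S::ULT1 libraries, so its state varied within the Ler background. PIP2;8 (AT2G16850), an aquaporin gene, had 0 bp in Col-0 and 800 and 1200 bp in Ler (SE 118.3 bp, adjusted p = 0.000833), but it was marked in both ref6-3 libraries. PR5, a thaumatin-like gene of the salicylic acid response, had 0% in Col-0 and 73.9% and 59.1% in Ler, and 0% in both ult1-3 libraries. KCS14, a 3-ketoacyl-CoA synthase gene, had 0% in Col-0 and 86.4% and 100% in Ler, with 100% H3K27me3 cover in all 4 libraries. GRF5, a growth-regulating factor gene, had 0% in Col-0 and 66.1% and 41.3% in Ler. It was at 0% in both 35S::ULT1 libraries.

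Some domains differed in breadth at genes marked in all 4 libraries. The differences ranged from 430 to 1578 bp (median 631 bp) for the 42 broader in Col-0 and from 500 to 2100 bp (median 800 bp) for the 37 broader in Ler. MAA3 (AT4G15570), a helicase gene needed in the female gametophyte, had 1394 bp in both Col-0 libraries and 594 bp in both Ler libraries (SE 92.2 bp, limma adjusted p = 0.000737). The same 9.2% of its span was covered in all 6 other libraries of the Ler background. HEI10 (AT1G53490), which encodes a meiotic crossover factor, had 800 bp in both Col-0 libraries and 1734 bp in both Ler libraries (SE 110.5 bp, adjusted p = 0.000833). Both ref6-3 libraries, however, had the cover of Ler (47.0%), so at HEI10 the Col-0 wild-type libraries differed from all 10 others. The peak involved, chr1:19963201-19965000, also covers part of MRD1. CYP71B19 (AT3G26170), a cytochrome P450 gene, had 600 and 800 bp in Col-0 and 1600 bp in both Ler libraries (SE 96.3 bp, adjusted p = 0.000411). These are 30.7% and 41.0% of its span in Col-0 and 81.9% in Ler. Cover was 71.7% to 81.9% in the ult1-2 and 35S::ULT1 libraries but 41.0% in both ult1-3 libraries. H3K27me3 at this gene differed in the opposite sense, with 58.3% and 41.0% in Col-0 and 0% in both Ler libraries.

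The gene lists differed in how often they held such genes, and no list was tested. Against 1.32% and 0.856% of all protein-coding genes, cytochrome P450 genes gave 7 Col-0-only (3.00%) and 1 Ler-only gene of 233, the latter CYP71B24, with 0 bp in Col-0 and 860 bp in both Ler libraries. WRKY factor genes gave 3 Col-0-only genes of 68, namely WRKY72, WRKY29 and WRKY75, regulators of stress responses. None of the 3 was called by limma, and WRKY29 and WRKY75 still had 400 bp of cover in Ler library 3. MYB factor genes gave 3 and 1 of 132, glutathione transferases 2 and 0 of 48, UDP-glycosyltransferases 1 and 1 of 61, and MADS-box genes 1 and 1 of 103. Terpene synthases (1 and 0 of 23), SAUR auxin-response genes (1 and 0 of 80), F-box proteins (0 and 1 of 42), glucosinolate genes (0 and 1 of 45) and defensin-like peptides (0 and 1 of 160) had 1 gene each. There were 0 in either direction among 101 NAC genes, 9 MATH/TRAF genes, 79 flowering-time genes, 60 ribosomal protein genes, 12 genes of H3K4 methyltransferases and demethylases, and 54 photosynthesis genes. All 54 photosynthesis genes were marked in all 4 libraries, as were 63 of the flowering-time genes and 11 of the 12 enzyme genes. Lists were matched by symbol and are therefore incomplete.

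**Figure D2:**
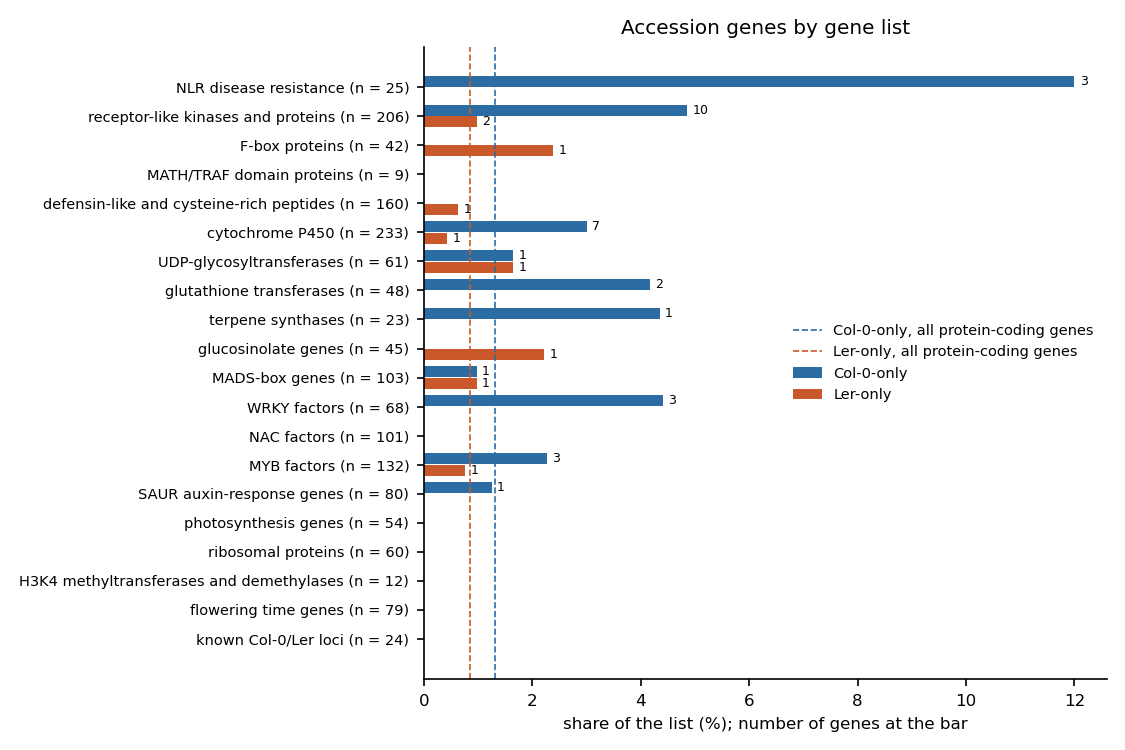
Share of each gene list (x axis, percent of the list) that was K4-marked in Col-0 alone (blue) or Ler alone (orange), with the number of genes at each bar and dashed lines for all protein-coding genes (1.32% and 0.856%). NLR genes stand at 12% from 3 of 25 genes, and the housekeeping lists have no bar.

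Of 24 genes at which natural variation between accessions is well known, none changed state by the rule, and limma called 1 of 19 tested, RPP5. The 5 others (AOP2, AOP3, MAM1, IMS2 and MAF5) had 0% K4 cover in all 4 libraries and so could show no difference. ER (ERECTA), a receptor kinase gene of plant form, had 24.3% and 21.3% cover in Col-0 and 24.3% in both Ler libraries. FLC, the flowering repressor, had 10.7% and 14% in Col-0 and 9.89% and 14% in Ler. FRI, its activator, had 49.9% in both Col-0 libraries and 38.4% and 46.2% in Ler. RPM1 had 36.6% and 42.0% in Col-0 and 42.0% in both Ler libraries. For these 4 genes the Ler values lay within the Col-0 range or within 12 points of it, and their adjusted p in limma was 0.757 to 1. Other loci were further apart without passing the test. RPP13, an NLR gene, had 71.5% and 65.2% in Col-0 and 37.9% and 44.3% in Ler (adjusted p = 0.147), and RPS2, another, had 56.6% and 62.2% in Col-0 and 33.9% and 45.3% in Ler (adjusted p = 0.534). AOP1, a glucosinolate locus gene, had 79.2% and 65.2% in Col-0 and 100% and 93.2% in Ler (adjusted p = 0.919). MAF4, a relative of FLC, had 29.9% and 15.0% in Col-0 and 0% and 15.0% in Ler (adjusted p = 0.919). In the first 3 of these the accessions did not overlap.

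Genes outside the protein-coding set were unevenly affected. Of 133 pseudogenes marked in at least 1 of the 4 libraries, 40 were Col-0-only (30.1%) and 19 Ler-only (14.3%), against 1.99% and 1.29% of marked protein-coding genes. As a share of all 3917 pseudogenes, marked or not, these were 1.02% and 0.485%, below the 1.32% and 0.856% of protein-coding genes. Of 127 tRNA genes marked in at least 1 library, 26 were Col-0-only (20.5%, or 4.16% of all 625 tRNA genes) and 0 Ler-only. These tRNA genes are 71 to 82 bp long, shorter than the 200 bp window of the peak lists, so a shift of 1 window at a peak's edge can change their state. In all, 114 and 116 tRNA genes were marked in Col-0, 62 in Ler library 1 and 87 in Ler library 3. Of the 26, all were marked in both ref6-3 libraries. In the Ler background the libraries with the number 1 held 1 (ult1-2), 2 (ult1-3) and 0 (35S::ULT1) of them and those with the number 3 held 14, 16 and 11, so the tRNA difference moved with the library number, whose part was not tested. Of 326 microRNA genes, 6 were Col-0-only (1.84%) and 1 Ler-only (0.307%), against 1.32% and 0.856% of protein-coding genes. Of the 86 marked in at least 1 library, Col-0-only genes made up 6.98%, against 1.99% of marked protein-coding genes. The share of the 1 Ler-only gene among the 86 was near the 1.29% of marked protein-coding genes. MIR172b, the source of a microRNA that targets AP2-like flowering repressors, and MIR162b, whose microRNA targets DICER-LIKE 1, were under K4 peaks over 100% of their span in both Col-0 libraries and 0% in both Ler libraries. MicroRNA genes too are shorter than 1 window.

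The 8 libraries that took no part in the rule were then read at the 597 genes. Of the 362 Col-0-only genes, 317 (87.6%) were marked in both ref6-3 libraries and 18 in neither. As a reference, 99.0% of all genes marked in both Col-0 libraries were marked in both ref6-3 libraries. In the 6 libraries of the Ler background, 194 Col-0-only genes (53.6%) were marked in none and 1 in all 6. Both conditions together held for 172 genes (47.5%). Of the 235 Ler-only genes, 161 (68.5%) were marked in neither ref6-3 library and 36 in both. The matching reference was 96.6% of all genes marked in neither Col-0 library. In the Ler background, 84 (35.7%) were marked in all 6 libraries and 3 in none, and 58 (24.7%) met both conditions. Col-0-only genes were marked more often in libraries with the number 3 than with the number 1 of each genotype in the Ler background (80 against 32 in ult1-2, 104 against 38 in ult1-3, 96 against 27 in 35S::ULT1).

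**Figure D3:**
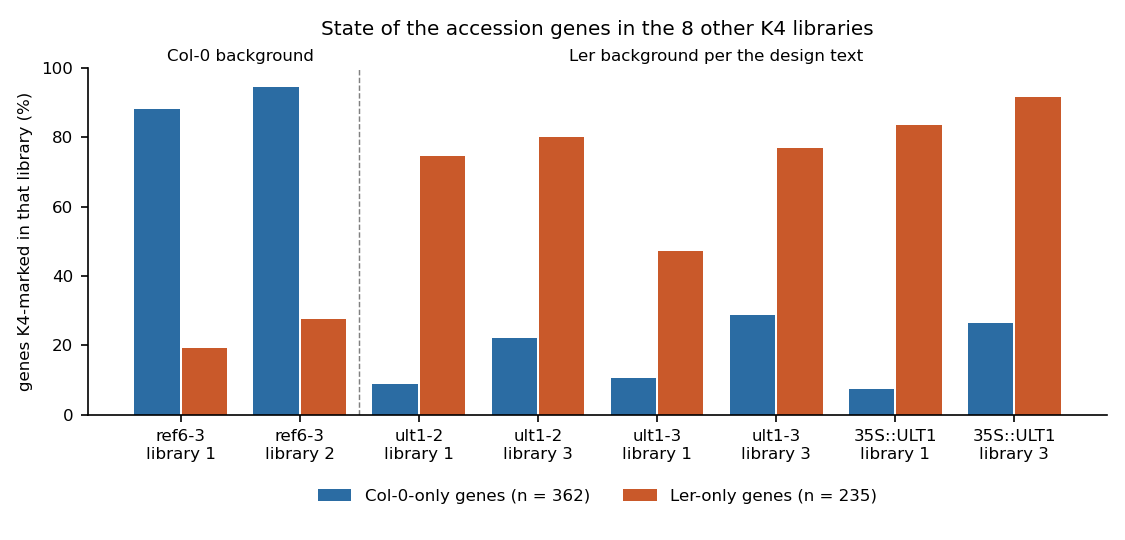
Percent of the 362 Col-0-only (blue) and 235 Ler-only genes (orange) that were K4-marked (y axis) in each of the 8 libraries not used to define them, 1 pair of bars per library. Blue bars reach 88.1% and 94.5% in ref6-3 and 7.46% to 28.7% in the Ler background, and the lowest orange bar of the Ler background is ult1-3 library 1 (47.2%).

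The ult1-3 libraries departed from the other libraries of the Ler background at particular places. To describe this, 288 genes were taken at which both ref6-3 libraries had the state of Col-0 and all 4 ult1-2 and 35S::ULT1 libraries had the state of Ler. Both ult1-3 libraries had the state of Ler at 230 of them, the state of Col-0 at 33, and differed from each other at 25. Of the 33 genes, 26 lay in 3 stretches chosen after the values were seen. These were 8 to 11 Mb of chromosome 1 (8 of 12 informative genes), 25 to 31 Mb of chromosome 1 (12 of 16) and 14 to 19 Mb of chromosome 4 (6 of 11), the chromosome that carries ULT1. Elsewhere 7 of 249 genes had the state of Col-0. HO3, for a heme oxygenase, and AT4G32230 lie in these stretches, with 0% K4 cover in Col-0, in ref6-3 and in both ult1-3 libraries and 32.4% to 57.9% in the Ler, ult1-2 and 35S::ULT1 libraries. The last peak of chromosome 1 ended at 30425000 in both Col-0 and both ref6-3 libraries, at 30424000 and 30425400 in ult1-3, and at 30415200 to 30416200 in Ler, ult1-2 and 35S::ULT1. This chromosome end holds the longest Col-0-only run, AT1G80960 to AT1G80990, with 4 adjacent genes.

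**Figure D4:**
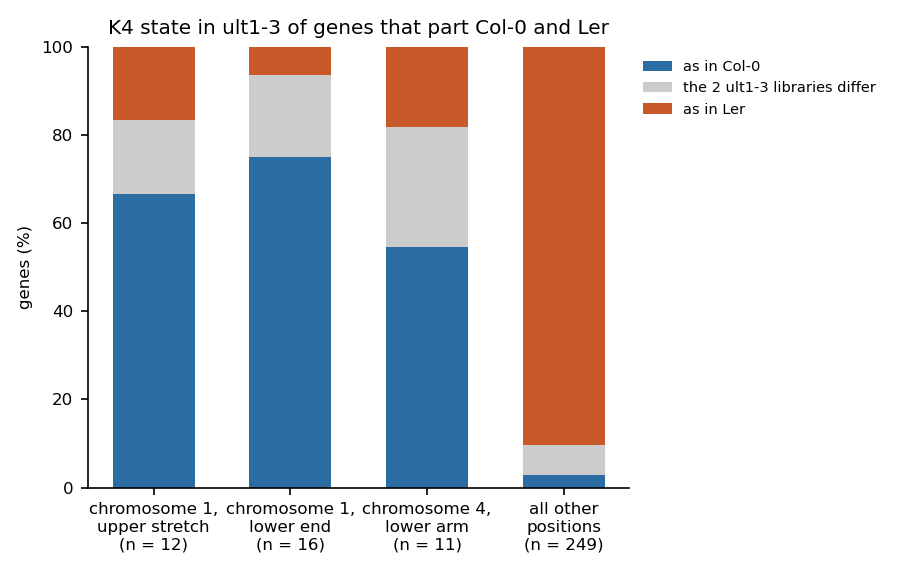
Percent of genes (y axis) at which both ult1-3 libraries had the K4 state of Col-0 (blue), both had that of Ler (orange) or the 2 libraries differed (grey), in 3 chromosome stretches picked after seeing these values and at all other positions. The state of Col-0 is found at 8 of 12, 12 of 16 and 6 of 11 genes in the stretches and at 7 of 249 elsewhere.

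Accession differences were spread over all 5 chromosomes. Col-0-only genes made up from 0.880% (38 genes, chromosome 2) to 1.58% (66 genes, chromosome 4) of the protein-coding genes of a chromosome. Ler-only genes made up from 0.774% (49 genes, chromosome 5) to 0.981% (41 genes, chromosome 4). Around the centromeres, taken as 1 Mb bins with under 50% of the chromosome's median gene number, 28 of 1159 genes were Col-0-only (2.42%) against 1.27% on the arms. As a share of genes marked in at least 1 library these were 6.29% and 1.88%. For Ler-only genes the shares were 1.04% and 0.848% of all genes and 2.70% and 1.26% of marked genes. Col-0-only genes were often neighbours: 68 of them (18.8%) lay in runs of 2 or more adjacent genes, with 26 pairs and 5 longer runs. Of the Ler-only genes, 7 (2.98%) lay in runs, the longest being 3 genes that end with LHT2, an amino acid transporter gene with 0 bp in Col-0 and 1200 and 800 bp in Ler. Runs were not tested, and neighbours can share 1 peak.

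Whether H3K27me3 differed in the opposite sense was read from the Col-0 and Ler lists for that mark, 2 libraries each. A gene counted as different when the libraries of the accessions did not overlap and their mean cover differed by at least 20 points of the gene span. Over all 27444 genes this held for 654 higher in Col-0 (2.38%) and 1301 higher in Ler (4.74%). Of the Col-0-only genes, 40 (11%) had more H3K27me3 in Ler, which is the opposite sense, and 35 (9.67%) had more in Col-0, which is the same sense. Of the Ler-only genes, 19 (8.09%) had more H3K27me3 in Col-0 and 21 (8.94%) more in Ler. The remaining 287 (79.3%) and 195 (83.0%) differed in neither way, and the median difference was 0 in both groups. Each share lay above its background. More H3K27me3 in Col-0 was found at 9.67% of Col-0-only and 8.09% of Ler-only genes, against 2.38% of all genes. More in Ler was found at 11% and 8.94%, against 4.74%. Opposite and same sense had similar counts, but their backgrounds differ, so the counts alone do not compare the senses. Genes with no H3K27me3 peak in any of the 4 lists were fewer in both groups (49.4% and 53.6%) than among all genes (65.3%), and their part in those shares was not tested. H3K27me3 covered at least 50% of the gene in all 4 libraries at 22.1% of Col-0-only and 23.0% of Ler-only genes, against 21.2% of all genes. By limma on the H3K27me3 lists, which called 4.36% of 11458 genes higher in Col-0 and 7.8% higher in Ler, the Col-0-only genes held 26 and 31 calls of 219 tested. The Ler-only genes held 17 and 15 of 145.

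**Figure D5:**
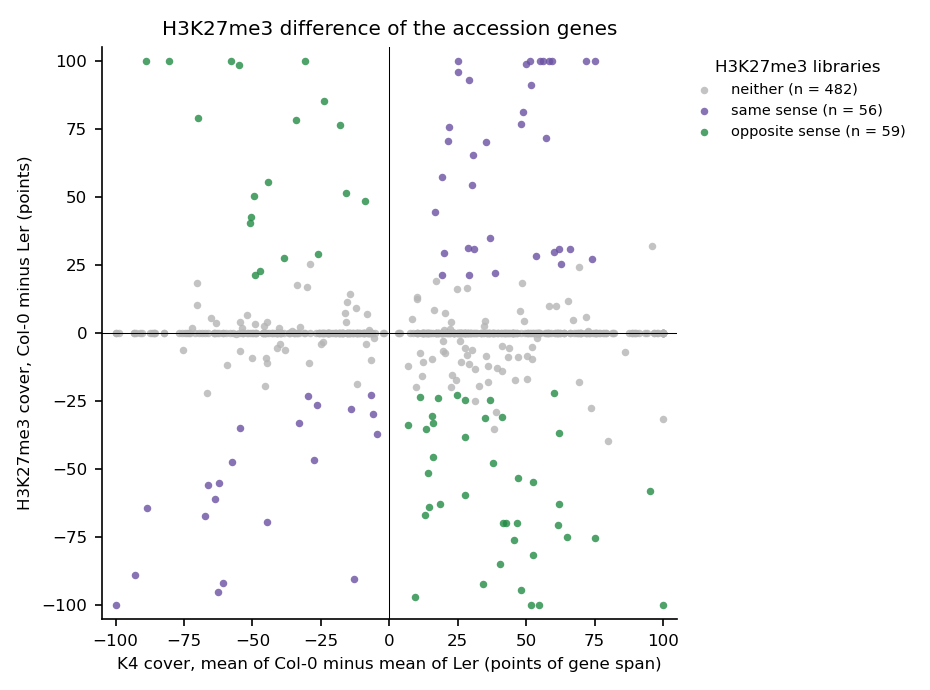
Difference in K4 cover (x axis) and in H3K27me3 cover (y axis), each as the mean of Col-0 minus the mean of Ler in points of the gene span, for the 597 Col-0-only and Ler-only genes. Most points lie on or near 0 on the y axis, with 40 and 19 genes of opposite sense (green) and 35 and 21 of the same sense (purple).

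Complete exchanges of the 2 marks were found at a few genes. AT1G27565 had K4 over 100% of its span in both Col-0 libraries and 0% in both Ler libraries, and H3K27me3 over 0% in both Col-0 and 100% in both Ler libraries. Its K4 peak lay at chr1:9574401-9575200 and the Ler H3K27me3 peak at chr1:9574201-9584600. Its K4 difference had a limma adjusted p of 0.119, so the exchange rests on the non-overlap of 2 against 2 libraries. AT3G60150 had 51.9% K4 in both Col-0 libraries and 0% in Ler, against 0% H3K27me3 in Col-0 and 100% in Ler. AT3G55890 had 54.6% K4 in both Col-0 libraries and 0% in Ler with the same 0% and 100% of H3K27me3, but its K4 cover was 0% in both ref6-3 libraries too, and the paired-end Col-0 list had 89.6% H3K27me3 cover there. The state of this gene was thus not shared by all lists of the Col-0 background.

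Among named genes of the opposite sense, LUL1, for a RING ubiquitin ligase, had 65.7% K4 in both Col-0 libraries and 0% and 26.3% in Ler, with 0% H3K27me3 in Col-0 and 81.5% in both Ler libraries. JAX1, for a jacalin-type lectin named for potexvirus resistance, had 94.4% K4 in both Col-0 libraries and 0% and 38.6% in Ler, with H3K27me3 at 0% in Col-0 and 89.3% and 61.4% in Ler. HXK3, for a hexokinase, and CML11, for a calmodulin-like protein, also had 0% H3K27me3 in Col-0, with 40.5% and 27% and 38.2% and 38.2% in Ler. None of these 4 K4 differences passed the test, with limma adjusted p of 0.354 for LUL1, 0.316 for JAX1, 0.919 for HXK3 and 0.1 for CML11.

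In the Ler-only direction, AT4G24420 had 0% K4 in Col-0 and 99.4% and 78.7% in Ler, with 100% H3K27me3 in both Col-0 and 0% in both Ler libraries, under peaks at chr4:12626601-12627600 for K4 and chr4:12626601-12630200 for H3K27me3. AT5G37280, AT4G32230 and AT5G36240 likewise had 0% K4 in Col-0 and 80.6%, 57.9% and 55.0% in both Ler libraries, with 97% to 100% H3K27me3 in Col-0 and 0% in Ler. Of these 4 genes AT4G24420 and AT5G36240 were K4-marked in all 6 other libraries of the Ler background.

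The paired-end H3K27me3 list of Col-0, which the rule did not use, lay on the Col-0 side at 36 of the 40 Col-0-only genes of opposite sense (90%) and at 12 of the 19 Ler-only ones (63.2%). The Col-0 side means less H3K27me3 for the former and more for the latter. That list covers 18.9 Mb, against 25.6 and 23.0 Mb for the single-end Col-0 lists, so the shares cannot be compared directly. The part of list size was not tested. All 6 H3K27me3 libraries of the Ler background lay on the Ler side at 22 of 40 and 8 of 19. For K4, both ref6-3 libraries lay on the Col-0 side at 34 and 16 of them.

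Genes of the same sense had more of both marks in 1 accession, in some cases with none of either in the other. AT5G42460 had 58.2% K4 in both Col-0 libraries and 0% in both Ler libraries, with H3K27me3 at 100% and 0%. AT1G52100 had 47.5% and 71.3% K4 in Col-0 and 0% in Ler (1500 bp, SE 176.5 bp, limma adjusted p = 0.00125), with H3K27me3 again at 100% in both Col-0 and 0% in both Ler libraries. SNC4, described above with the receptor kinases, had 87.7% and 63.8% H3K27me3 in Col-0 and 0% in Ler. HR4, a homolog of the mildew resistance gene RPW8, had 57.1% K4 in both Col-0 libraries and 0% in Ler, with 98.6% H3K27me3 in Col-0 and 27.1% in Ler. TPS-CIN, for a cineole synthase, had 27.6% and 33.1% K4 in Col-0 and 0% in Ler, with 100% H3K27me3 in Col-0 and 45.6% in Ler. It has a near-identical neighbouring copy, so its share of reads is uncertain. In the reverse case AT4G19240 had 0% K4 in Col-0 and 92.9% in both Ler libraries (1201 bp, SE 92.5 bp, adjusted p = 3.26e-05), with H3K27me3 at 0% and 22.6% in Col-0 and 100% in both Ler libraries. SKIP3, an F-box gene, had 0% K4 in Col-0 and 46.4% and 42.8% in Ler, with 10.8% and 0% H3K27me3 in Col-0 and 68.8% and 80.4% in Ler.

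Genes with no base under a peak of either mark were counted, since missing sequence leaves no peak for any antibody. Of the Col-0-only genes, 131 (36.2%) had none in the 4 Ler lists, close to the 33.5% of all 9857 genes that were K4-unmarked in both Ler libraries. In the 16 lists of Ler and its background 77 (21.3%) had none, against 25.4% of those 9857 genes and 9.14% of all protein-coding genes. Of the Ler-only genes, 67 (28.5%) had none in the 4 Col-0 lists. The share was 34.3% of the 9868 genes that were K4-unmarked in both Col-0 libraries and 12.3% of all protein-coding genes. The 9857 and 9868 genes include the called genes themselves and the 9257 genes K4-marked in none of the 4 libraries. All protein-coding genes include K4-marked ones, which have a peak by definition, so neither reference is a matched one. H3K27me3 peaks lay somewhere on 148 Col-0-only genes (40.9%) in both Ler libraries, against 60.6% of the 9857 genes and 30.7% of all protein-coding genes. Whether the sequence under each Col-0 K4 peak is present in Ler was not tested.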

How the data were processed

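The authors' deposited single-end lists hold, per peak, read counts in the ChIP library and a q-value. The submitters' processing notes name CASAVA 1.8.2, BWA 0.6.2-r126, Picard 1.93, SAMtools 0.1.19, bedtools 2.17.0-97, SICER 1.1 and TAIR10. Parameters are not stated. Several ChIP reactions on 1 nuclear extract were pooled per library, per the labels' protocols. Of the deposited paired-end Col-0 list, which carries a score, only positions were used. Peaks lie on 200 bp windows and are given 1-based. Total sequencing depth is not in the lists.

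Bases of each gene span (RefSeq table of TAIR10.1, whose nuclear spans matched best at shift 0) under peaks were summed per list with pandas 2.3.3. Covered bp were fitted with limma 3.58.1 over 12 K4 lists in 6 genotype groups, with residual variance raised to at least 6667 bp squared (rounding of 2 edges to windows). Tested on simulated data at 18641 genes, a 600 bp change was recovered at 89 of 100 genes, a 300 bp change at 14 of 100, with 0 false calls. The simulated noise was independent between lists and at most 1 window, and only well-covered genes were changed. The real lists of the Ler background share deviations by library number, so these rates need not hold for them. Permutation of 2 against 2 libraries cannot give p under 0.333, so none was made. Named genes are the 15 most different by rule per direction, up to 10 of opposite sense, at most 4 per list and direction, known loci, and symbol-bearing genes chosen after values were seen; examples are printed. Members and lists were chosen with earlier results of these data known. 1 gene that meets the naming rule is not reported here.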

Additional observations from a re-analysis of the deposited data

Results flagged for a closer look

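Of the single-end lists used here, 1 held peaks outside the nuclear chromosomes: the H3K27me3 list of Col-0 library 1 had 3 peaks on the chloroplast genome, where no nucleosomes are found, and each of the other lists, all K4 lists included, had 0. These peaks entered no comparison.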

How the results depend on the processing

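For 72 single genes fitted under the alternatives, 851 values kept direction and call, 66 gained and 89 lost the call, and none changed sign while called in either fit. With a minimum of 1000 bp or 80% of the span there were 468 Col-0-only and 443 Ler-only genes, of which 116 and 44 were among the 362 and 235, so this rule picks mostly different genes. With peaks of q at most 1e-20, Ler-only genes numbered 128, of which 107 were among the 235. Leaving out a library gave 394 to 790 Col-0-only and 321 to 450 Ler-only genes. Limma's calls higher in Col-0 and in Ler were 426 and 188 without the variance floor, 515 and 431 with only the 4 lists, 701 and 722 on log2 reads in peaks, 588 and 263 with all lists of each background, 266 in Col-0 without the filter and 55 in Ler with q at most 1e-20. Leaving out a library gave 58 to 137 and 43 to 127. With library number as a replicate block, the fit called 1086 and 745. The numbers do not pair the accessions, which share only number 1, and the correlation of their deviations was 0.01; within the Ler background it was 0.362 to 0.52. H3K27me3 of opposite sense was found at 24 Col-0-only and 12 Ler-only genes with 50 points, at 22 and 12 with the 50% state rule, and at 13 and 10 with limma calls. The same sense was found at 21 and 11, at 12 Ler-only genes, and at 16 and 9. Leaving out an H3K27me3 library gave 42 to 47, 18 to 20, 34 to 39 and 21 to 23. The causes were not tested. Lists give no depth beyond reads in peaks, and a 300 bp change is mostly missed.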
